A study of Mus musculus with 31 samples.

Results

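The comparison described here sets 8 stem-like tumour cultures against 6 neural stem cell (NSC) cultures of the hindbrain, 14 of the 31 arrays of the study. The arrays were chosen by their labels: the 8 are titled as cancer stem cells of a Ptch heterozygous, p53 wild-type medulloblastoma, and the 6 are the NSC of the IV ventricle region (3) and of the cerebellar white matter (3). Every culture was made from C57BL/6 mice and grown as neurospheres, free-floating clusters fed with EGF and FGF2. Each tumour line came from 1 tumour of a mouse with 1 mutant copy of Ptch and intact p53, and is called here by its tumour number (74, 91, 92, 9, 49, 68, 77 and 83). The NSC came from mice at postnatal day 7 whose names are marked wild type, and the age of the tumour mice is not given in the labels. The other 17 arrays (3 of NSC from the forebrain subventricular zone, 6 of p53 heterozygous tumour cultures and 8 of tumour tissue) enter only where a level is set beside the lines.

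Medulloblastoma is a tumour of the cerebellum. Ptch1 is the receptor that holds Sonic hedgehog (Shh) signalling in check, and mice that lack 1 copy develop tumours that resemble proliferating granule neuron precursors. Neurosphere culture selects for cells that divide in EGF and FGF2, and hindbrain NSC grown in this way express radial glial and astrocyte-related genes.

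Values are log2 intensities of 1 probe set per gene, so that 1 unit is a 2-fold difference. A difference is the mean of the lines minus that of hindbrain NSC, in which both regions weigh equally, with the SE of the limma fit. Genes count as called at a Benjamini-Hochberg adjusted p under 0.05, computed over 18194 genes. With 8 and 6 cultures, the number of arrays limits the precision. The arrays correlated at 0.973 to 0.991 between lines and at 0.985 to 0.995 between NSC, so none was a copy of another. In bulk samples, fewer cells of a type and less RNA per cell cannot be told apart.

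Some neural stem cell markers were high on both sides. Nes, an intermediate filament of neural stem cells, lay at 8.45 to 9.48 in the lines and at 8.89 to 9.56 in the NSC. Sox2, a transcription factor that maintains neural stem cells, lay at 9.60 to 10.41 in the lines and at 9.73 to 9.98 in the NSC, and Fabp7, a radial glial lipid carrier, at 12.14 to 12.70 in the lines and at 11.98 to 12.61 in the NSC. None of these 3 genes was called, but Msi1, an RNA-binding protein of neural progenitors, was at 4.91 to 6.27 in the lines and 6.13 to 7.14 in the NSC (-1.07 ± 0.21, adjusted p = 0.0038). Of 26 neural stem and radial glial genes measured, 3 were higher (11.5%) and 1 lower (3.85%), beside 3.51% and 6.06% of all genes. The 13 markers of microglia, endothelium and fibroblasts read at most 3.69 in all 14 cultures, with Csf1r of microglia the highest. Among the 4 neuronal markers, Syt1 was at 4.93 to 6.36 in the lines and 5.04 to 6.58 in the NSC and was not called. Of 20 microglial and 23 endothelial and mural genes measured, 0 were called by limma, and 0 of the microglial and 2 of the endothelial and mural genes had an unadjusted p under 0.05.

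Of 18194 genes, 638 were higher in the lines (3.51%) and 1102 were lower (6.06%). With the arrays shifted to the same median there were 788 higher and 849 lower genes. At an unadjusted p under 0.05 there were 4167. A difference of at least 2-fold was reached by 139 of the higher genes (0.764%) and 213 of the lower genes (1.17%). All 8 lines read above all 6 NSC for 148 of the genes called higher (0.813%), and all 8 lines read below all 6 NSC for 425 of the genes called lower (2.34%). The median difference of all genes was 0.0033. The authors' normalisation brings the arrays to a common level, so this value does not compare the total amount of RNA.

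**Figure D1:**
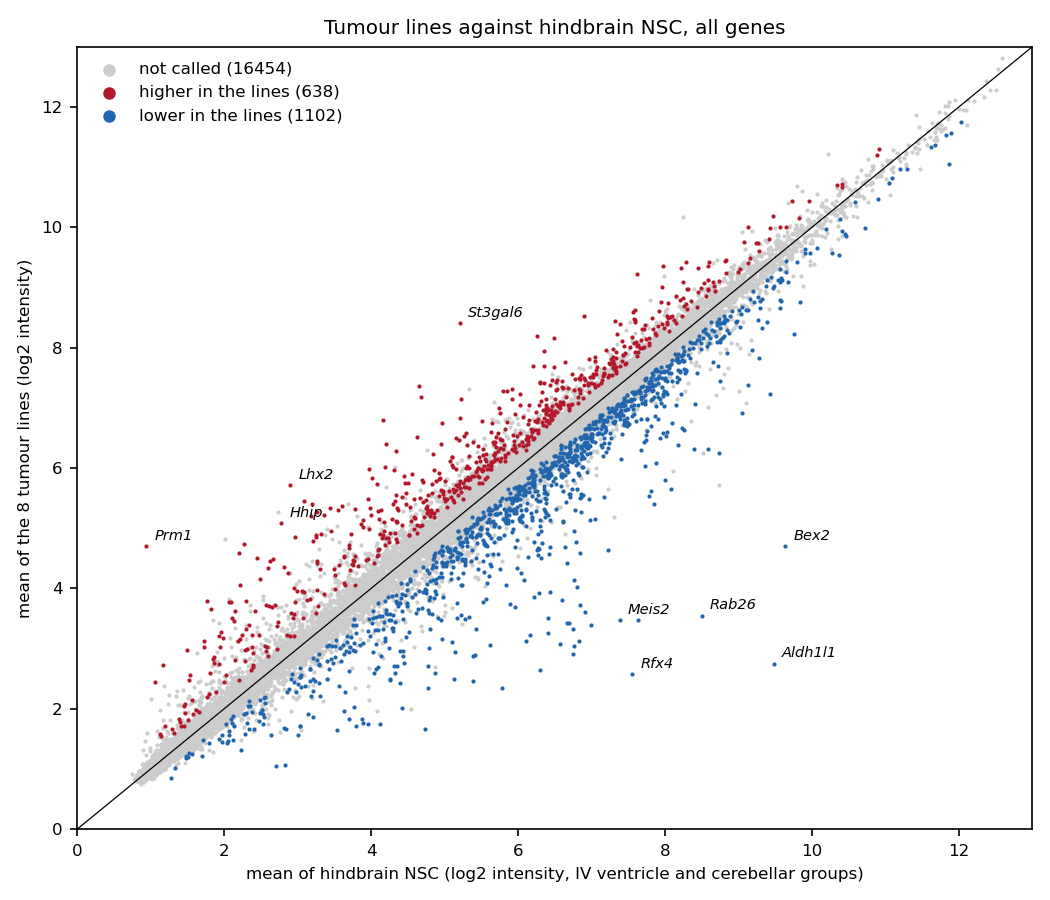
Each point is 1 gene, with the mean of the 8 tumour lines (y axis, log2 intensity) against the mean of hindbrain NSC (x axis, log2 intensity), and the line marks equal values. Genes called higher in the lines are red (638), genes called lower are blue (1102), and the points farthest from the line lie below it, led by Aldh1l1.

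The groups were not matched for Y-linked signal or for marks in the sample names. The Y-linked gene Eif2s3y read 6.57 in line 92 and 6.33 in line 68 but 0.88 to 1.06 in the other 6 lines, against 4.75 to 6.36 in all 6 NSC. Xist, the RNA of the inactive X chromosome, read 3.28, 3.79 and 3.41 in lines 91, 92 and 68 and 9.27 to 9.78 in the other 5 lines. In the NSC it read 9.31, 3.28 and 6.90 in the IV ventricle cultures and 8.86, 3.59 and 8.04 in the cerebellar ones. Thus 4 NSC cultures carried both signals and line 91 neither, and the Y reading alone does not give the sex of a culture. With only the 6 lines without this signal, 664 genes were called higher and 997 lower. With the signal as a term in the fit the counts were 38 and 160, and of 140 genes called and named here 36 kept their call and 0 changed direction. A date-like mark in the sample names is shared by lines 74, 91, 92 and 9 and another by lines 49, 68, 77 and 83. No NSC carries either, so mark and group cannot be told apart between lines and NSC. With the mark as a random block the counts were 248 and 572. Between the lines of the later and the earlier mark 191 genes were called (1.05%), 83 higher and 108 lower in the later one, but 2 when only the 8 lines were fitted. The part of these imbalances in the differences below was not tested further.

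Prm1 and St3gal6 were among the largest rises. Prm1, a protamine that packs DNA in sperm, read between 2.88 and 5.81 in the lines, with a median of 4.95, against 0.76 to 1.12 in the NSC. Y-linked genes on arrays without Y signal read up to 1.67, so the NSC lay at background, and Prm1 was higher by at least 3.04 (adjusted p = 1.37e-05). All 3 of its probe sets were called. Its level in the tumour tissues was higher again, at 6.76 to 8.43. The p53 heterozygous tumour cultures 27 and B read 5.05 and 3.80, and NSC of the subventricular zone averaged 1.01. All these tumour samples are titled Ptch heterozygous and the NSC are not, so genotype and tumour origin cannot be told apart for Prm1. Whether its probe sets read the Prm1 transcript itself was not tested. St3gal6, which adds sialic acid to sugar chains, was at 6.97, 8.60 and 9.64 (lowest, median and highest) in the lines against 3.90, 5.15 and 6.56 in the NSC, a difference of 3.20 ± 0.44 (adjusted p = 3.76e-04). For both genes every line read above every NSC culture, as the choice of genes without overlap required. These sizes depend on the probe set: with all probe sets of a gene averaged the differences were 2.52 for Prm1 and 1.51 for St3gal6, and both were still called.

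Lhx2, a LIM homeobox gene of the developing forebrain, lay in a narrow band in the lines, from 5.18 to 6.13 with a median of 5.69, against 2.10 to 3.60 in the NSC (2.82 ± 0.25, adjusted p = 6.67e-06). It averaged 6.81 in NSC of the subventricular zone. In the tumour tissues it read 4.61 to 5.79, and in the p53 heterozygous tumour cultures 27 and B 4.55 and 5.06. Of the 21 forebrain patterning genes measured, Lhx2 was the only one called higher, and Pou3f1, a POU factor, the only one called lower (-3.25 ± 0.58, adjusted p = 0.00227). Pou3f1 read 6.43 in line 68 and 1.73 to 4.95 in the other lines, against 6.06 to 7.67 in the NSC.

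Several further rises were seen in every line. Nupr1, a stress-induced nuclear protein, was at 4.06 to 6.57 in the lines and 2.41 to 3.52 in the NSC (2.38 ± 0.34, adjusted p = 5.28e-04). Ugt8a, which makes the myelin lipid galactosylceramide, was at 4.38 to 6.60 in the lines and 2.40 to 3.97 in the NSC (2.20 ± 0.36, adjusted p = 0.0014), or higher by 1.41 with its probe sets averaged. Ddr2, a collagen receptor, was at 7.75 to 8.69 in the lines and 5.48 to 7.08 in the NSC (1.66 ± 0.23, adjusted p = 4.36e-04). Cdh19, a cadherin of glial and neural crest lineages, differed by 1.92 ± 0.28 (adjusted p = 6.02e-04). Pgbd5, derived from a transposase, differed by 2.39 ± 0.29 (adjusted p = 1.34e-04) and Syt9, a synaptotagmin, by 1.90 ± 0.26 (adjusted p = 3.94e-04). These genes are among the 15 largest rises of called genes without overlap, so a rise in every line follows from that choice. The remaining members of the 15 were Hhip, Plppr5, Gucy1a1, Ifi27, Card6 and Spata13, with differences of 1.66 to 2.31. Called genes with overlap were left out, among them S100b (2.71).

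**Figure D2:**
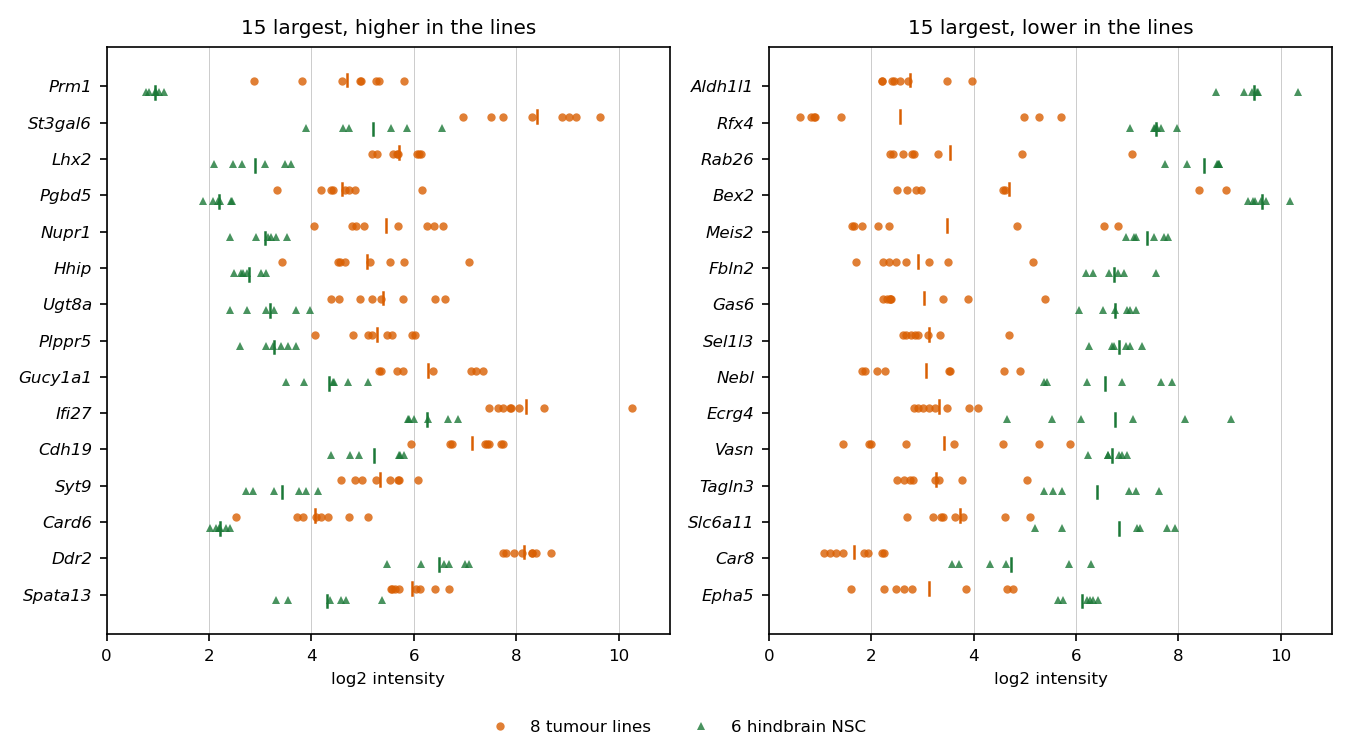
The 15 largest rises (left) and falls (right) among called genes with no overlap between groups, with the log2 intensity of each culture on the x axis. Circles are the 8 tumour lines, triangles the 6 hindbrain NSC and short bars the group means, and Rfx4, Rab26, Bex2 and Meis2 spread widely among the lines.

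Aldh1l1 had the largest measured fall. Aldh1l1, a folate enzyme and astrocyte marker, was at 2.21, 2.51 and 3.97 in the lines (lowest, median and highest) against 8.73, 9.49 and 10.34 in the NSC, a difference of -6.73 ± 0.27 (adjusted p = 1.54e-10). The lowest NSC culture was thus above the highest line, as the choice of genes without overlap required for all falls in this paragraph. Sel1l3, of less known function, was at 2.61 to 4.70 in the lines and 6.26 to 7.29 in the NSC (-3.72 ± 0.27, adjusted p = 9.06e-07). Fbln2, a fibulin of the extracellular matrix, was at 1.71 to 5.16 in the lines and 6.19 to 7.57 in the NSC (-3.85 ± 0.40, adjusted p = 3.23e-05). Gas6, the ligand of the TAM receptor kinases, was at 2.22 to 5.39 in the lines and 6.05 to 7.17 in the NSC (-3.72 ± 0.42, adjusted p = 8.37e-05). Rab26, a small GTPase of secretory vesicles, was at 2.36 to 4.95 in 7 lines and at 7.10 in line 68, against 7.74 to 8.80 in the NSC (-4.95 ± 0.59, adjusted p = 1.26e-04). Car8, a carbonic anhydrase-related protein, averaged 1.66 in the lines, at the background level, and was lower by at least 3.07 (adjusted p = 5.77e-04), with 1 of its 3 probe sets called. With all probe sets of a gene averaged the differences were smaller, at -4.48 for Aldh1l1, -1.86 for Sel1l3, -2.06 for Fbln2, -1.93 for Gas6 and -1.41 for Car8, and all 5 genes were still called.

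Astrocyte genes moved in both directions. Of 34 measured, 3 were higher (8.82%) and 5 lower (14.7%), beside 3.51% and 6.06% of all genes, with a median difference of -0.08. Beside Aldh1l1 the lower members were Slc6a11, a GABA transporter (-3.12 ± 0.42, adjusted p = 3.63e-04), Gabrg1, a GABA receptor subunit (-2.58 ± 0.67, adjusted p = 0.0214), the water channel Aqp4 and the receptor Ntsr2. Slc6a11 was at 2.69 to 5.10 in the lines and 5.19 to 7.94 in the NSC. S100b, a calcium-binding protein, went the other way: it was at 6.88 to 8.11 in 7 lines and at 5.44 in line 68, against 3.56 to 5.94 in the NSC (2.71 ± 0.44, adjusted p = 0.00122). Sox9 was also higher (0.94 ± 0.25, adjusted p = 0.0221), as was Gpc5. With probe sets averaged the differences were -1.62 for Slc6a11 and 0.62 for Sox9, both still called. Gfap, the defining filament of astrocytes, was at 2.74 to 4.22 in the lines and 2.53 to 4.16 in the NSC and was not called.

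Genes of oligodendrocyte precursors were called in 1 direction. Of 16 measured, 4 were higher (25%) and 0 lower, beside 3.51% and 6.06% of all genes, with a median difference of 0.10. Pdgfra, the PDGF receptor of these precursors, was at 5.17, 6.29 and 8.12 in the lines (lowest, median and highest) against 3.43, 4.14 and 5.18 in the NSC (2.20 ± 0.47, adjusted p = 0.00754). Line 77, at 5.17, was level with the highest NSC culture, and with its probe sets averaged the difference was 1.16. Cspg4, the NG2 proteoglycan, was at 7.61 to 8.03 in lines 74, 91, 92 and 9 and at 6.43 to 6.51 in lines 49, 68, 77 and 83, against 5.39 to 6.54 in the NSC (1.24 ± 0.33, adjusted p = 0.0245). This split follows the name mark, and the difference between marks was itself called (adjusted p = 0.0379). Bcas1 (0.83 ± 0.18, adjusted p = 0.00697) and Lhfpl3 (1.02 ± 0.26, adjusted p = 0.0188) were the other 2, and Bcas1 was higher by 0.55 with probe sets averaged. The lineage factors Olig2 and Sox10 were not called, and Olig2 was high in all cultures, at 9.37 to 10.26 in the lines and 10.18 to 10.51 in the NSC.

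In the Shh pathway the measured change lay in a few genes. Of 25 measured, 3 were higher (12%) and 1 lower (4%), beside 3.51% and 6.06% of all genes, with a median difference of -0.05. The higher members were Hhip, Bmi1 and Pdgfra, and Bmi1 and Pdgfra also count in other lists. Ptch1, the receptor, was at 5.72, 6.46 and 7.75 in the lines and 7.99, 8.26 and 8.62 in the NSC (lowest, median and highest), with no overlap (-1.63 ± 0.32, adjusted p = 0.00414). With its probe sets averaged the difference was -0.94, still called, but the call was lost with Y signal as a term (adjusted p = 0.256 by limma). The Ptch1 level does not check the genotype, since the position of the probe set against the altered part of the gene is unknown. Hhip, which binds hedgehog proteins and is itself induced by the pathway, was at 3.42 to 7.07 in the lines and 2.49 to 3.11 in the NSC (2.31 ± 0.38, adjusted p = 0.00145). The calls of Hhip and Bmi1 were also lost with Y signal as a term. That of Bmi1 was lost with only the lines of the later name mark too, and that of Pdgfra against IV ventricle NSC alone. The transcription factor Gli1, the usual readout of the pathway, was at 1.86 to 2.56 in the lines and 1.80 to 2.04 in the NSC (0.17 ± 0.12, adjusted p = 0.46). Mycn was at 1.93 to 3.08 in the lines and 2.31 to 2.86 in the NSC, and Atoh1, a granule precursor factor, at 1.98 to 2.77 in the lines and 1.91 to 2.54 in the NSC. In the 8 tumour tissues the same genes read 6.50 to 7.69 (Gli1), 8.86 to 9.62 (Mycn) and 7.45 to 8.53 (Atoh1), above every line. Trp53 had no probe set of a single symbol and was not analysed here.

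Called Wnt pathway genes were mostly lower. Of 41 measured, 2 were higher (4.88%) and 7 lower (17.1%), beside 3.51% and 6.06% of all genes, with a median difference of -0.14. The ligand Wnt5a was at 4.28 to 5.19 in the lines and 5.60 to 6.60 in the NSC, without overlap (-1.63 ± 0.19, adjusted p = 9.03e-05). Porcn, which lipidates Wnt proteins, was at 3.68 to 4.45 in the lines and 4.63 to 5.12 in the NSC (-0.72 ± 0.13, adjusted p = 0.00278). Znrf3, a ubiquitin ligase that removes Wnt receptors, was lower by 0.75 ± 0.12 (adjusted p = 0.00143), or by 0.49 with probe sets averaged. The other lower members were Fzd8, Wnt7b, Rnf43 and Nkd1. Ctnnb1, encoding beta-catenin, was higher by 0.38 ± 0.11 (adjusted p = 0.0394) and the receptor Fzd1 by 0.67 ± 0.20 (adjusted p = 0.0395). Both calls were lost in 18 of the other settings.

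In the Notch pathway the genes called were lower. Of 25 Notch pathway genes 0 were higher and 3 lower (12%), beside 3.51% and 6.06% of all genes, with a median difference of -0.07. Lfng, a sugar transferase that tunes Notch receptors, was at 5.42 to 6.91 in the lines and 7.80 to 8.87 in the NSC (-1.80 ± 0.21, adjusted p = 9.03e-05). The ubiquitin ligases Dtx4 (-1.09 ± 0.21, adjusted p = 0.00339) and Dtx1 (-0.95 ± 0.24, adjusted p = 0.0212) were the others. Of 33 FGF, EGF and PDGF signalling genes 4 were higher (12.1%) and 2 lower (6.06%), beside 3.51% and 6.06% of all genes, with a median difference of 0.02. The higher members were Pdgfra, Tgfa, Pdgfc and Fgf5. Fgf5 averaged 1.57 in the lines and 1.13 in the NSC, both below the background of 1.67, and the Pdgfc call was lost in 5 other settings. Fgfr1, a receptor for the FGF2 in the medium, was at 6.32 to 7.25 in the lines and 7.80 to 8.39 in the NSC (-1.35 ± 0.19, adjusted p = 5.32e-04). Spry1, a feedback inhibitor of this signalling, was lower by 0.68 ± 0.12 (adjusted p = 0.00197). Tgfa, a ligand of the EGF receptor, was at 5.26 to 6.67 in the lines and 4.26 to 4.95 in the NSC (1.11 ± 0.23, adjusted p = 0.00585). Only 1 of its 3 probe sets had this direction, and with all averaged the difference was 0.285.

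Target genes of p53 were called in the lower direction only. Of 31 measured, 0 were higher and 6 lower (19.4%), beside 3.51% and 6.06% of all genes, with a median difference of -0.19. Pmaip1, which encodes the death factor Noxa, was at 1.63 to 3.99 in the lines and 3.77 to 4.86 in the NSC (-1.77 ± 0.33, adjusted p = 0.00339). Cdkn1a, encoding the cell cycle inhibitor p21, was at 7.40 to 9.12 in the lines and 9.24 to 9.58 in the NSC, without overlap (-0.95 ± 0.24, adjusted p = 0.0171). Bbc3, encoding Puma, was at 4.04 to 5.67 in the lines and 5.79 to 6.28 in the NSC (-0.85 ± 0.21, adjusted p = 0.0181). Zmat3, Aen and Pidd1 were the other 3. Mdm2, which marks p53 for destruction and is a target itself, was not called (-0.19 ± 0.10, adjusted p = 0.279). With only the lines of the later name mark 0 members were called in either direction, and with the arrays set to the same median 1 was higher and 5 lower.

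Among cell cycle regulators, Cdkn2b, an inhibitor of Cdk4 and Cdk6, was lower (-1.96 ± 0.39, adjusted p = 0.00428). It was at 5.99 and 6.23 in lines 77 and 68 and at 3.41 to 4.60 in the other 6, against 5.91 to 7.39 in the NSC. Its neighbour Cdkn2a was not called but was near background in line 92 (1.38) and line 83 (1.62), against 3.83 to 5.44 in the NSC. Myc was slightly lower (-0.55 ± 0.12, adjusted p = 0.00817). Of 34 mitosis genes 2 were higher (5.88%) and 1 lower (2.94%), and of 38 DNA replication genes 2 were higher (5.26%) and 0 lower, with median differences of 0.01 and 0.14, beside 3.51% and 6.06% of all genes. Pcna, the replication clamp, was at 11.06 to 11.41 in the lines and 10.71 to 11.06 in the NSC (0.32 ± 0.08, adjusted p = 0.0188).

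Some midbrain and hindbrain patterning genes were lower, but none of these calls held in every setting. Of 23 midbrain and hindbrain patterning genes 1 was higher (4.35%) and 4 lower (17.4%), beside 3.51% and 6.06% of all genes. Their median difference was -0.17. Otx2, which sets the front border of the cerebellum, was at 1.21 to 1.86 in 7 lines and at 4.20 in line 77. In the NSC it was at 4.46 to 5.07 in the cerebellar cultures and at 1.72, 6.44 and 2.13 in those of the IV ventricle (-2.37 ± 0.61, adjusted p = 0.0201). The 2 sides therefore overlapped through the IV ventricle cultures, and the Otx2 call was lost in 5 of the other settings. Irx3 was lower by 0.76 ± 0.17 (adjusted p = 0.00779), a call lost in 3 of the other settings. Its difference was 0.11, higher in the lines, when forebrain NSC were averaged in. The remaining lower members were Irx5 (-0.915, adjusted p = 0.0214) and Meis1 (-0.96, adjusted p = 0.0336), with calls lost in 9 and 16 of the other settings. Zic1, a zinc finger gene of the cerebellar primordium and granule neurons, had a lowest value of 8.39 and a median of 9.44 in the lines, against 5.16 and 8.12 in the NSC, with overlap (1.60 ± 0.46, adjusted p = 0.0368), a call lost in 17 of the other settings. Without IV ventricle culture 2 the difference was 1.04 and was not called. Of 26 Hox genes 0 were called by limma and 4 had an unadjusted p under 0.05, and Hoxb2 came closest (-1.02 ± 0.34, adjusted p = 0.0651).

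Meis2, a homeobox gene that partners Pax6 and Hox proteins, was at 6.81 in line 68 and 6.55 in line 83 but at 1.62 to 4.84 in the other 6 lines, against 6.97 to 7.80 in the NSC (-3.91 ± 0.78, adjusted p = 0.00465). Of 29 granule neuron lineage genes 4 were higher (13.8%) and 3 lower (10.3%), beside 3.51% and 6.06% of all genes. Their median difference was 0.07. Pax6 was at 5.62 to 6.30 in the lines and 3.10 to 5.91 in the NSC (1.10 ± 0.31, adjusted p = 0.03). The difference was 0.67 without IV ventricle culture 2 and 0.58 with probe sets averaged, and the call was lost in 12 of the other settings, among them those without line 92, line 9, cerebellar culture 1 or cerebellar culture 3. Of 31 neuronal genes 0 were higher and 3 lower (9.68%), beside the same shares of all genes. These 3 were Tagln3 (-3.15 ± 0.41, adjusted p = 2.82e-04), Ina (-1.45 ± 0.27, adjusted p = 0.00335) and Syn1 (-0.91 ± 0.21, adjusted p = 0.0101).

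Most of the axon guidance genes called were lower. Of 42 axon guidance genes 1 was higher (2.38%) and 7 lower (16.7%), beside 3.51% and 6.06% of all genes. Their median difference was -0.04. Epha5, an ephrin receptor, was at 1.61 to 4.76 in the lines and 5.64 to 6.43 in the NSC (-2.98 ± 0.42, adjusted p = 4.32e-04). Slit1, a repellent ligand, was at 3.33 to 3.67 in the lines and 3.86 to 4.26 in the NSC (-0.47 ± 0.09, adjusted p = 0.00253). Of 39 glycosyltransferase genes 6 were higher (15.4%) and 3 lower (7.69%), beside 3.51% and 6.06% of all genes, with a median difference of -0.01. After St3gal6, the sialyltransferases St6gal1 (1.27 ± 0.24, adjusted p = 0.00373) and St3gal4 (0.74 ± 0.13, adjusted p = 0.00257) were higher without overlap, and the fucosyltransferase Fut9 was higher by 0.85 ± 0.18 (adjusted p = 0.00784).

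Of 33 cytosolic ribosomal protein genes 0 were higher and 8 lower (24.2%), beside 3.51% and 6.06% of all genes. Their median difference was -0.10, and their differences were small. Rpl37 was at 7.38 to 7.80 in the lines and 7.99 to 8.42 in the NSC (-0.56 ± 0.08, adjusted p = 7.60e-04). With the arrays set to the same median 3 members were called lower. In amino acid and folate metabolism, Aldh1l2, the mitochondrial relative of Aldh1l1, was at 6.46 to 7.53 in the lines and 5.42 to 6.02 in the NSC (1.16 ± 0.17, adjusted p = 7.17e-04). Asns, which makes asparagine, was higher by 0.89 ± 0.19 (adjusted p = 0.00608). Both read higher in every line than in every NSC culture.

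**Figure D3:**
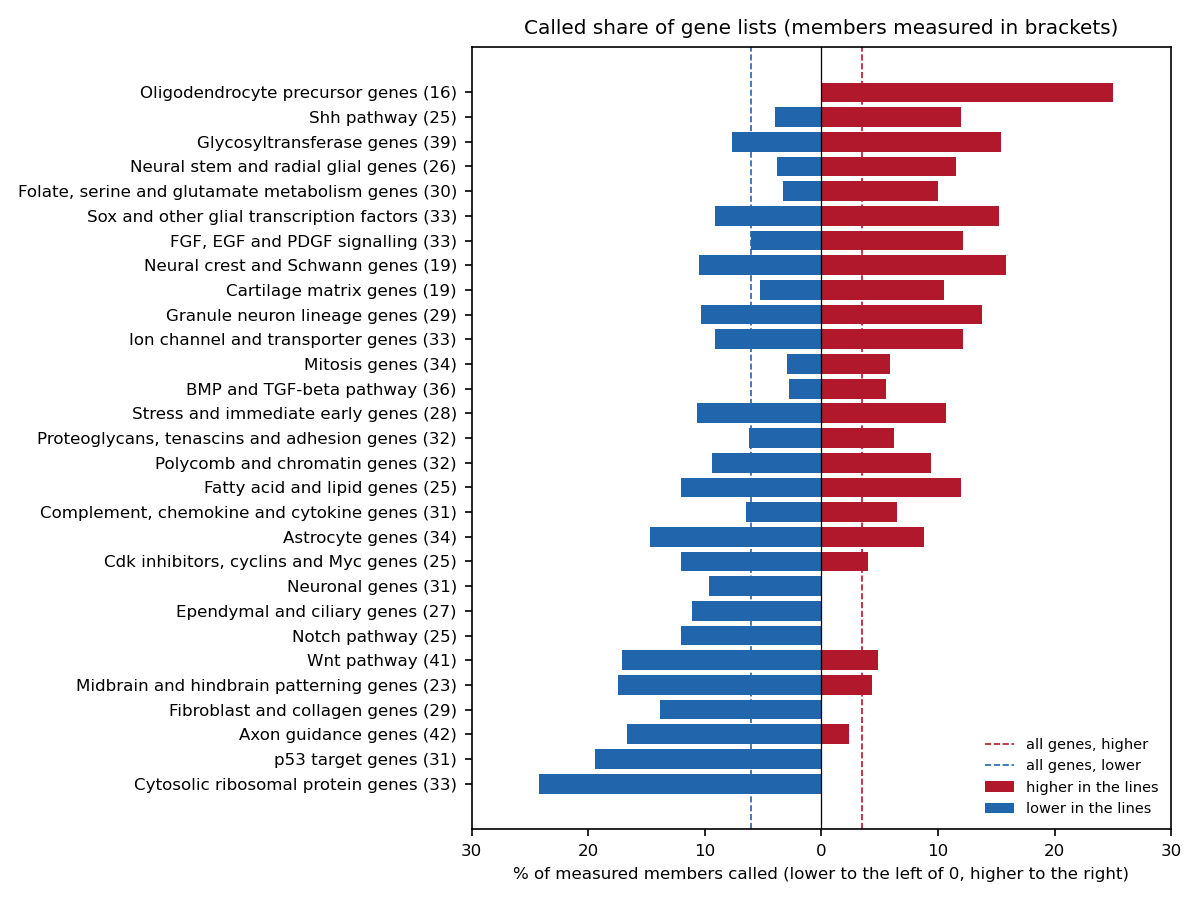
Share of measured members called higher (red, right of 0) and lower (blue, left of 0) in the lines, for the lists with at least 3 members called. Dashed lines mark the shares over all genes, 3.51% higher and 6.06% lower, and the number of members measured stands in brackets.

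The lines differed more among themselves than the NSC did. Over the 9097 brighter genes the median SD was 0.234 among lines and 0.163 among NSC, and the SD was over 1 for 203 genes in the lines and 49 in the NSC. The 12 genes that vary most were picked for their spread, so their values are given as a description. Rfx4, a transcription factor of neural patterning and cilia, was at 0.60 to 1.40 in lines 74, 91, 92, 9 and 49 and at 4.98 to 5.70 in lines 68, 77 and 83, against 7.06 to 7.96 in the NSC. Apart from line 49 this split follows the name mark, and the difference between marks was itself called (3.53, adjusted p = 0.0236 by limma). Line 91 alone lacked signal for Pcdh7, a protocadherin (0.80, against 6.88 to 7.53 in the other 7 lines), and read lowest for Lratd1 (1.91), the protease Ctsc (2.29) and the sialyltransferase St6gal2 (1.12). Line 83 read lowest for the interferon-induced membrane protein Ifitm3 (1.46) and for the neurite growth factor Nrn1 (1.98).

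Bex1, Bex2 and Bex4, of a family of small brain-expressed proteins on the X chromosome, were lowest in the same 4 lines. Bex2 was at 8.92 in line 68 and 8.41 in line 83, at 4.62 and 4.57 in lines 9 and 49, and at 2.51 to 2.98 in lines 74, 91, 92 and 77, against 9.35 to 10.18 in the NSC. Bex4 was at 6.84 and 6.41 in lines 68 and 83, at 4.12 and 4.43 in lines 9 and 49, and at 1.47 to 2.17 in lines 74, 91, 92 and 77, against 6.72 to 7.08 in the NSC. Bex1 was at 8.20 to 8.81 in lines 49, 68 and 83, at 7.09 in line 9 and at 2.22 to 5.50 in the same 4 low lines, against 8.38 to 9.06 in the NSC. Bex2 (-4.94 ± 0.91, adjusted p = 0.00278) and Bex4 (-3.30 ± 0.76, adjusted p = 0.0112) were called, and Bex1 was not (-3.02 ± 0.96, adjusted p = 0.056). Bex3 varied less: it was at 6.73 to 7.31 in lines 91, 92 and 77 and at 8.41 to 9.24 in the other 5, line 74 included, against a mean of 9.17 in the NSC, and was not called (-1.04 ± 0.34, adjusted p = 0.0618). Bex1, Bex2 and Bex4 were picked for their spread and Bex3 was added after its values were seen. Each had 1 probe set, and whether transcripts of related family members bind the same probes was not tested. The 250 bases before the annotated starts of Bex1, Bex2 and Bex4 are shown because these 3 genes were lowest in the same 4 lines, with each CG in capitals (RefSeq, GRCm38.p6, Bex1 at chrX:136215514-136215763 on the minus strand, Bex2 at chrX:136068237-136068486 on the minus strand and Bex4 at chrX:136138746-136138995 on the plus strand).
Bex1: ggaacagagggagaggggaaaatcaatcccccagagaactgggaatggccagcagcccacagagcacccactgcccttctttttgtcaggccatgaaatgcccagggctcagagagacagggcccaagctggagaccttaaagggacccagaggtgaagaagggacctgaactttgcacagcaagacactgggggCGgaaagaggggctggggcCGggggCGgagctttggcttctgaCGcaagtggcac
Bex2: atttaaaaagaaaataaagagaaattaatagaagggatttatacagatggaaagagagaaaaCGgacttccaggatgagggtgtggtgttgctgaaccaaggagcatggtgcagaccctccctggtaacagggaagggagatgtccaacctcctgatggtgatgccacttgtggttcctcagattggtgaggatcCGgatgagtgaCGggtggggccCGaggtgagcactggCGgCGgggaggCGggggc
Bex4: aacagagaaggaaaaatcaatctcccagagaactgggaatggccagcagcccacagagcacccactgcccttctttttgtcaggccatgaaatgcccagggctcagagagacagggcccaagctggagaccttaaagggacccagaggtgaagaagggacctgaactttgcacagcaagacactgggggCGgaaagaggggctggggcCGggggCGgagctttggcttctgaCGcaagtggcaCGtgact
These windows hold 4 (Bex1), 7 (Bex2) and 5 (Bex4) CG, against a median of 6 over 32851 such windows of the table. The Bex1 and Bex4 windows share a run of 221 bases, while the longest run that Bex2 shares with Bex1 is 8. The counts describe these windows and say nothing of methylation, which was not measured.

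**Figure D4:**
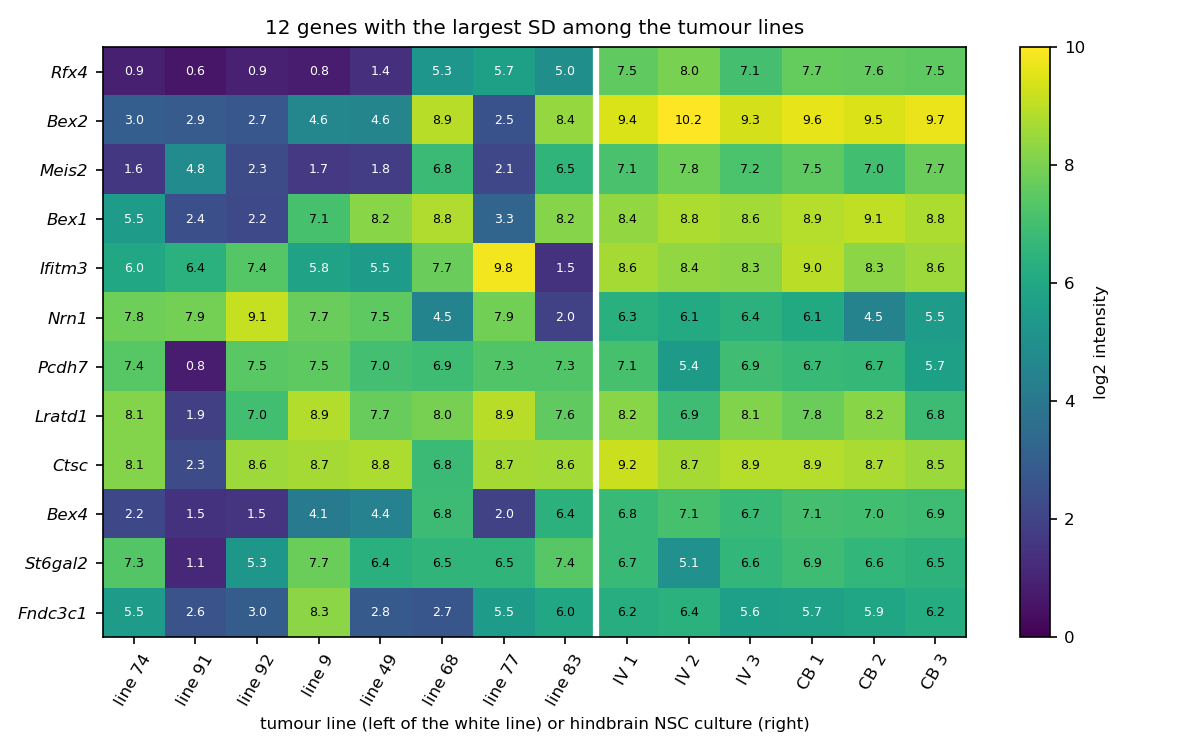
Log2 intensity (colour and number) of the 12 genes with the largest SD among the lines, with the 8 tumour lines left of the white line and the 6 hindbrain NSC cultures (IV, IV ventricle; CB, cerebellar) right of it. Bex2 and Bex4 are near their NSC level in lines 68 and 83, and Pcdh7, Lratd1, Ctsc and St6gal2 are far below the other cultures in line 91.

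Some lines read high over a whole chromosome. The median difference of a line from the NSC mean over the brighter genes of a chromosome, less that over all brighter genes, was 0.57 for chromosome 1 in line 49 and 0.225 in line 68. For chromosome 6 it was 0.50, 0.54 and 0.425 in lines 91, 92 and 9 and -0.04 to 0.07 in the other lines. It was 0.40 for chromosome 8 in line 83, 0.44 and 0.415 for chromosome 11 in lines 74 and 77, 0.37 for chromosome 15 in line 49 and 0.45 for chromosome 17 in line 91. On the same measure the NSC cultures stayed between -0.032 and 0.045 on every chromosome listed. They make up the NSC mean themselves and are thereby drawn toward it, which the lines are not. Genes of chromosome 1 were called higher in 6.91% and those of chromosome 6 in 5.84%, against 3.51% of all genes. Without genes of chromosomes 1, 6, X and Y, 492 genes were called higher and 1041 lower. Chromosomes 8, 11, 15 and 17, on which some lines also read high, stayed in these counts. Copy number was not measured.

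**Figure D5:**
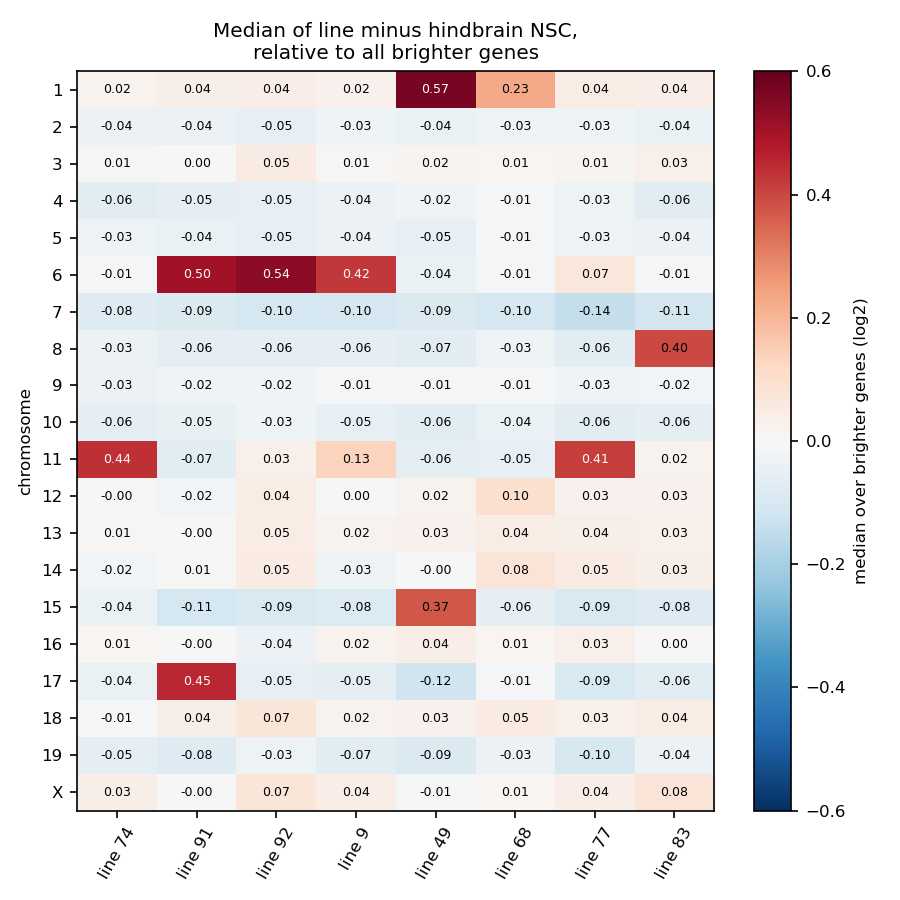
Median log2 difference of each tumour line (columns) from the hindbrain NSC mean over the brighter genes of each chromosome (rows), relative to all brighter genes of that line. Lines 91, 92 and 9 stand out on chromosome 6 and line 49 on chromosome 1, and each line has at least 1 chromosome above 0.2.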

How the data were processed

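Total RNA was labelled with biotin and hybridised to 1 Affymetrix mouse array per sample, per the labels. Each deposited value is the log2 intensity of a probe set, computed by the authors with RMA, per the submitters' processing notes. The RMA version is not given in the sources used here. They were used as deposited (array medians 3.17 to 3.25 on the 14 arrays). Of 45101 probe sets, 34958 carried 1 symbol, and 932 with several and 9211 not listed in the probe table were left out. Each of 18194 genes was represented by its brightest probe set, judged by the mean of all 31 arrays.

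The 19 cultures shared 1 fit of 5 groups (limma 3.58.1, R 4.3.3, 14 residual degrees of freedom), with technical replicates averaged. Tests were two-sided. Background is the highest reading, 1.67, of Eif2s3y, Kdm5d and Uty on the 19 arrays without Y signal, a level chosen with the values in view. On simulated data the fit recovered 89 of 100 genes changed by 1 log2 unit and 99 of 100 changed by 2, and called 6 unchanged genes. The simulated noise was independent between cultures, with 1 spread per gene for all groups. It held no imbalance of name mark or Y signal, so it does not measure false calls in the real data.

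Named genes were Ptch1, Gli1 and Gli2, the 15 largest differences in each direction among called genes without overlap, the smallest p-values in each list, and the 12 with the largest SD among lines, and only some of them are described. Marker genes and Bex3, Peg3, Ndn, Cdkn2a, Mycn and Atoh1 were added after their values were seen. The members and the 49 lists were chosen with earlier results of these data known. The labels name 1 tumour per line but no animal for the NSC, so p-values measure the spread between these samples. Replicate numbers of IV ventricle and cerebellar NSC showed no regular pairing (correlations 0.377 for number 1, -0.138 for number 2 and -0.061 for number 3). Replicates numbered 1 share a name mark between the regions, as do those numbered 3, but not those numbered 2. Of 105 named called genes with several probe sets, 0 had one called the opposite way and 43 had all called the same way. Figures used Python 3.11.15 and matplotlib 3.10.9.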

Additional observations from a re-analysis of the deposited data

Results flagged for a closer look

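In 17 of 175 genes examined, 1 line stood apart from the other 7 by a gap test, where chance flags about 1 in 20 groups. Of these genes 12 had been picked for a large SD among the lines and hold 4 of the 17, all in line 91, and the other 163 hold 13. The genes were chosen with their values in view, so the count is no test. Line 68 was the outlying line for 6 genes: it read high for Sel1l3 (4.70), Ina (4.03), Hoxb2 (3.31), Pou3f4 (6.46) and Sox10 (5.48), and low for S100b (5.44). For Pou3f4, S100b, Ina and Hoxb2 its value lay within or next to the NSC range. Line 91 read low for Pcdh7 (0.80), Lratd1 (1.91), Ctsc (2.29) and St6gal2 (1.12). Line 77 read high for Ifi27 (10.27), Znrf3 (5.91) and Otx2 (4.20). Line 83 read high for Cdk2 (8.02) and low for the glutamate transporter Slc1a2 (4.90). Line 49 read low for Olig2 (9.37) and high for the glutamate transporter Slc1a3 (10.32).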

How the results depend on the processing

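The counts of 638 higher and 1102 lower genes kept within 1.5 times under another scaling, a brightness filter, averaged probe sets, another prior and the replicate block of NSC numbers (643 higher and 1118 lower). They moved further against IV ventricle NSC alone (161 and 432), against cerebellar NSC alone (195 and 478), with the name mark as a random block (248 and 572), with only the lines of the earlier mark (976 higher) or the later mark (282 and 721), and with Y signal as a term (38 and 160, chosen after the data were seen). The alternatives against 1 NSC group rest on 3 cultures. Leaving out 1 culture gave 321 to 735 higher and 739 to 1176 lower genes. The lowest count of higher genes was without IV ventricle replicate 2 (321), followed by that without cerebellar replicate 2 (410).

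The 191 genes that differed between name marks became 73 with the arrays set to the same median, 68 after quantile normalization and 2 with only the 8 lines, and 17 to 522 when 1 line was left out, so that count depends on single lines. Irx3 reversed, to 0.11, against the mean of all 3 NSC regions. The cause of these changes was not tested. Of 140 named called genes 33 kept their call in every setting that measured them, among them Aldh1l1, Prm1, Lhx2, Wnt5a, Lfng and Fgfr1. Another 21 lost it in 10 or more settings, among them Zic1, Ctnnb1, Pax6, Meis1, Plk1 and Sox11. Leaving out 1 culture ended the call of 42 of the 140. Among those described, it was that without IV ventricle replicate 2 for Cdkn1a (-0.805), Lhfpl3 (0.796), Cspg4, Sox9, Fzd8 and Pidd1, without IV ventricle replicate 1 for Dtx1, Gabrg1, Pcna and Fzd8, without cerebellar replicate 1 for Dtx1, Gabrg1, Pcna and Cspg4, without cerebellar replicate 2 for Fzd8, and without cerebellar replicate 3 for Cspg4, Sox9 and Pidd1. Dim genes are limited by background, and differences near it are understated.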

Other observations

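A few imprinted and interferon-related genes, picked after their values were seen, were called. Peg3, a paternally expressed zinc finger gene, was at 4.95 to 8.21 in the lines and 8.41 to 8.84 in the NSC (-2.27 ± 0.44, adjusted p = 0.00373 by limma), or -1.27 with its probe sets averaged. Ndn, paternally expressed in neurons, was at 5.35 to 7.16 in the lines and 7.46 to 7.93 in the NSC (-1.70 ± 0.25, adjusted p = 5.90e-04). These were the 2 of 25 imprinted genes measured that were called (8%), beside 6.06% of all genes called lower. Ifit2, an interferon-induced gene, averaged 6.54 in the lines and 5.27 in the NSC (1.27 ± 0.19, adjusted p = 7.19e-04), and B2m, a part of the class I antigen complex, averaged 9.33 in the lines and 8.22 in the NSC (1.12 ± 0.25, adjusted p = 0.00874). Of 33 interferon response genes 2 were called higher (6.06%) and 0 lower, beside 3.51% and 6.06% of all genes. Their median difference was 0.43, and the lines differed widely in them. Summed over the list, the log2 values ran from 107.7 to 203.8 in the lines and from 104.5 to 111.4 in the NSC. Tlr3, a sensor of double-stranded RNA, was at 5.13 to 7.59 in the lines and 4.41 to 5.71 in the NSC (1.79 ± 0.35, adjusted p = 0.0039).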
